A study of Mus musculus with 6 samples.

Results

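The receptor tyrosine kinases for platelet-derived growth factor (Pdgfra, Pdgfrb), fibroblast growth factor (Fgfr1, Fgfr2, Fgfr3), hepatocyte growth factor (Met), insulin-like growth factor (Igf1r), vascular endothelial growth factor (Flt1) and collagen (Ddr1, Ddr2) were followed by RNA-seq in transformed mouse fibroblasts with and without a hairpin against Mettl3. The 10 members were chosen by gene symbol, and all 10 were found among the 54532 genes of the FPKM table. Mettl3 is the enzyme that, in a complex with Mettl14, places N6-methyladenosine (m6A) on mRNA. Both groups were mouse embryonic fibroblasts that expressed the adenoviral oncoprotein E1A and HRasV12, an activated Ras. Both were grown in medium with fetal calf serum, and both were treated with 0.2 ug/ml doxorubicin, a topoisomerase II poison, for 6 h. The shLuc_dox group (3 libraries) carried a control hairpin, and the shMettl3_dox group (3 libraries) carried a hairpin against Mettl3. Libraries without doxorubicin were not analysed here, so every comparison is within the treated state. The labels do not say whether the libraries of a group came from separate cultures or clones, or when the transgenes and hairpins were introduced.

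Recovered depth was 17026910 to 20163633 reads in shLuc_dox and 17680358 to 25505278 reads in shMettl3_dox. Values are FPKM, reads scaled to the gene's length and to the library's size. Mettl3 was lower in all 3 shMettl3_dox libraries (1.29 to 1.65 FPKM) than in the shLuc_dox libraries (2.47 to 3.14 FPKM). Its log2(FPKM + 1) fell by 0.58, with a limma adjusted p of 0.00861. Replicate 3 of shMettl3_dox stood apart. Its chi-square per degree of freedom against the other two was 11.2 and 12.8, and all other replicate pairs lay between 3.36 and 4.42. Each of the 8 members tested is therefore also given without it. The fibroblast label was checked against 10 marker genes. Vim, Twist1 and Prrx1 passed 1 FPKM. Vim was lower (818 ± 25.7 and 703 ± 34.0 FPKM, limma adjusted p = 0.0259), a call lost on leaving out any one library other than shMettl3_dox replicate 3 (0.0689 to 0.0903), and the other two did not pass. In contrast, Col1a1, Col1a2 and Col3a1 were below 1 FPKM in both groups' means and Thy1 was at 0.0116 FPKM in shLuc_dox and 0 in shMettl3_dox. Col1a2, under the level needed for the limma test, was higher in the count tests (0.129 and 0.247 FPKM, adjusted p = 0.0167 in edgeR and 0.0345 in DESeq2). Of 6 macrophage markers the 2 tested, Cd68 and Cd14, fell, beside 13.5% of all genes tested. The defining Ptprc and Adgre1 were near 0, and the list summed to 22.5 to 26.7 FPKM in shLuc_dox and 15.6 to 16.97 FPKM in shMettl3_dox. RNA came from bulk cultures, in which fewer cells of a type and less RNA per cell cannot be told apart.

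Receptor tyrosine kinases are single-pass membrane proteins. A ligand brings receptors together or reshapes a receptor pair, the kinase domains phosphorylate each other, and adaptor proteins dock on the phosphotyrosines and switch on Ras, phosphoinositide 3-kinase and phospholipase C. HRasV12 is active without that input, so it acts below the receptors. In mouse fibroblasts the PDGF receptors are classical drivers of division and migration, Fgfr1 mediates much of the FGF response, Igf1r carries survival signals, and the discoidin receptors read collagen.

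The Mettl3 complex prefers an adenosine within the core GGACT, on the transcript's own strand, and m6A is known to be densest near the stop codon. No m6A was measured here, so the sites below are letters in the transcript and not methylated positions. They are shown to place the preferred core in the 4 members that passed the limma test below and in 2 abundant members that did not pass it. Each is the GGACT nearest to the last coding base, with 8 bases on either side, in mm10 and on the gene's own strand, with GGACT in capitals.
Pdgfra chr5:75195182-75195202, plus strand: tgagaagaGGACTtgggtgat
Flt1 chr5:147564363-147564383, minus strand: aggaggcgGGACTttccgatc
Ddr1 chr17:35682316-35682336, minus strand: gggaagctGGACTcgaaaacc
Igf1r chr7:68214942-68214962, plus strand: tacgagacGGACTactaccgg
Fgfr1 chr8:25573896-25573916, plus strand: ccaacagtGGACTcaaacggc
Ddr2 chr1:169977372-169977392, minus strand: gaattgcaGGACTtggcattc

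The cores of Pdgfra, Ddr1 and Ddr2 lie 94, 54 and 475 bases after the last coding base, and those of Flt1, Fgfr1 and Igf1r lie 151, 13 and 611 bases before it. Over whole principal transcripts, Flt1 held 13 GGACT (1.89 per kb), Ddr1 held 6 (1.55 per kb) and Pdgfra held 8 (1.17 per kb). Igf1r held 14 (1.23 per kb), Fgfr1 held 8 (1.59 per kb) and Ddr2 held 11 (1.28 per kb). Met held 8 (1.17 per kb), Pdgfrb 10 (1.85 per kb), Fgfr2 3 (0.903 per kb) and Fgfr3 5 (1.18 per kb). The median over 10653 transcripts of tested genes was 1.05 per kb, and 40.6% of them had a core within 200 bases of the last coding base. Among the members, Pdgfra, Flt1 and Ddr1 had 1 there and Fgfr1 had 2. The first 3 of these fell and Fgfr1 did not pass the test, and no test of the relation was made.

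Flt1, Pdgfra and Ddr1 transcripts were lower in shMettl3_dox, and Igf1r transcripts were higher. Pdgfrb, Fgfr1, Met and Ddr2 did not pass the test, and Fgfr2 and Fgfr3 were too low to enter it. The test was limma on log2(FPKM + 1) over 12098 genes whose mean reached 1 FPKM, and a gene was called at a Benjamini-Hochberg adjusted p under 0.05. Of the 8 members tested, 3 fell, against 13.5% of all genes tested, and 1 rose, against 14.6%. In either direction 4 of 8 changed, against 28.1% of all. The median change of the 8 was -0.05 on the log2(FPKM + 1) scale, beside 0.01 over all genes tested. On that scale the change of a gene near 1 FPKM is smaller than its log2 ratio. With DESeq2 on recovered reads, 3 of 10 members fell and 1 rose, against 13.4% and 13.8% of 14579 genes (27.3% in either direction). With edgeR on the same reads, 3 fell and 2 rose, against 14.8% and 16.3% of 14478 genes (31.1% in either direction). The groups did not overlap in FPKM for 5 of the 8, against 45.1% of all genes tested, 3 of them lower (21.5% of all) and 2 higher (23.6% of all). The authors' deposited table of lower genes holds 3 of the 10 members, Flt1, Pdgfra and Ddr1, and 7.44% of the 26328 genes above 0 in any library. Many of those genes got no adjusted p in DESeq2, whereas all 10 members did, so the 13.4% above is the closer share. The table rests on the same libraries and is not separate support.

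**Figure D1:**
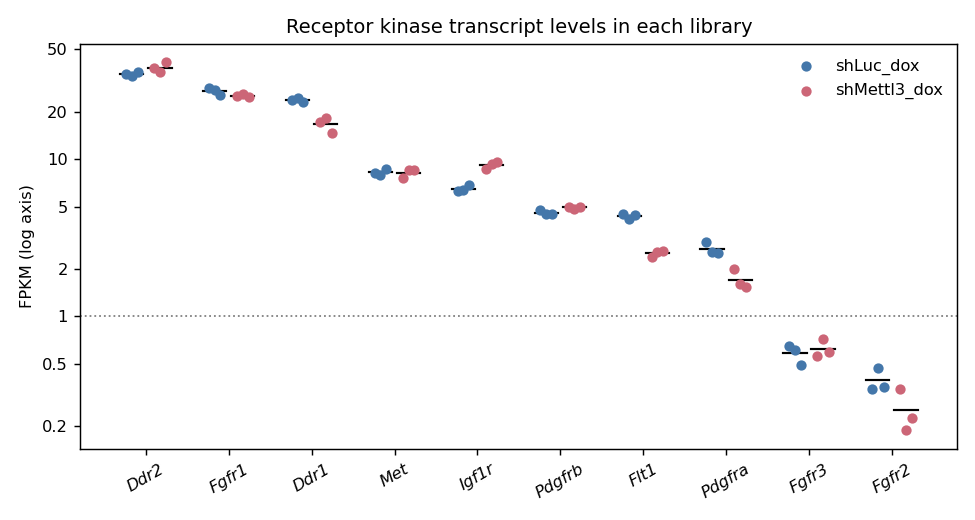
FPKM of the 10 receptor kinases on a log axis, one point per library, with bars at the group means (n = 3) and a dotted line at 1 FPKM. Flt1, Pdgfra and Ddr1 points are lower in every shMettl3_dox library, Igf1r points are higher in every one, and Fgfr2 and Fgfr3 lie under the line.

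Flt1 (ENSMUSG00000029648, mm10 chr5:147561604-147726011, minus strand) encodes VEGFR1, which binds Vegfa, Vegfb and Pgf and, in a secreted form, traps them. It was measured at 4.45, 4.15 and 4.43 FPKM in shLuc_dox and at 2.38, 2.57 and 2.59 FPKM in shMettl3_dox. The groups were well separated, with the highest knockdown library far below the lowest control library. The mean went from 4.34 ± 0.167 to 2.52 ± 0.115 FPKM (mean and SD of 3 libraries per group, as for all values given with ±), and the ratio was 0.580. Its log2(FPKM + 1) changed by -0.60 (SE 0.0658, 95% interval -0.76 to -0.45, limma adjusted p = 0.00124). Of all genes tested, 3.30% had a change at or below that of Flt1. Without shMettl3_dox replicate 3 the change was -0.62 (limma adjusted p = 0.00284). The DESeq2 log2 ratio was -0.78 (adjusted p = 5.83e-17), and the authors' deposited table of lower genes gives -0.781. Reads per library were 608 to 1127. Gene-level counts do not separate the membrane form from the secreted form.

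Flt1 is abundant in endothelium, so 8 endothelial markers were examined beside it. None reached 1 FPKM. Emcn and Erg were at 0 in all libraries, the highest single value of any marker was 0.258 FPKM, and the markers summed to 0.334 to 0.404 FPKM in shLuc_dox and 0.215 to 0.371 FPKM in shMettl3_dox. Kdr, which encodes VEGFR2 and is one of those markers, had 0.0668 ± 0.0106 FPKM in shLuc_dox and 0.0249 ± 0.00280 FPKM in shMettl3_dox, from 4 to 12 reads per library.

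Pdgfra (ENSMUSG00000029231, mm10 chr5:75152292-75198215, plus strand) encodes the receptor for the PDGF chains A, B and C, and marks mesenchymal progenitors. Its levels were 2.97, 2.56 and 2.54 FPKM in shLuc_dox and 1.99, 1.60 and 1.53 FPKM in shMettl3_dox. Every knockdown library was below every control library, and the first library of each group was the highest of its group. The mean went from 2.69 ± 0.238 to 1.71 ± 0.249 FPKM, a ratio of 0.635, from 280 to 541 reads per library. Its log2(FPKM + 1) changed by -0.45 (SE 0.102, 95% interval -0.69 to -0.21, limma adjusted p = 0.0180). The call was lost without shLuc_dox replicate 1 (-0.40, adjusted p = 0.0667) and without shMettl3_dox replicate 2 (-0.42, adjusted p = 0.0537). It was also lost when genes under 1 FPKM entered the test (adjusted p = 0.0635). It held without shMettl3_dox replicate 3 (-0.40, adjusted p = 0.0393), in DESeq2 (log2 ratio -0.65, adjusted p = 2.53e-05) and in edgeR (-0.64, adjusted p = 0.000433). The authors' deposited table gives -0.645. Kit and Kdr, the receptor kinase genes beside Pdgfra on chromosome 5, were at or near 0, and Kit had 1 read in 1 library and 0 in the others.

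Pdgfrb (ENSMUSG00000024620, mm10 chr18:61045150-61085061, plus strand) encodes the partner receptor, which binds PDGF-B and PDGF-D. It was measured at 4.73, 4.49 and 4.49 FPKM in shLuc_dox and at 4.967, 4.821 and 4.999 FPKM in shMettl3_dox. The shMettl3_dox values were slightly above all shLuc_dox values, as they were for 23.6% of all genes tested. The change in log2(FPKM + 1) was 0.09 (SE 0.0533, 95% interval -0.04 to 0.22, limma adjusted p = 0.254). Without shMettl3_dox replicate 3 it was 0.08 (adjusted p = 0.352). The ratio of Pdgfra to Pdgfrb FPKM was 0.628, 0.571 and 0.566 in shLuc_dox and 0.402, 0.331 and 0.307 in shMettl3_dox. The log2 ratio was lower by 0.77 in shMettl3_dox (-0.77 ± 0.0827 against -1.54 ± 0.1998), with a two-sided exact permutation p of 0.1, the smallest that 3 against 3 allows. Each gene alone already separated the groups, in opposite directions, so this p was fixed in advance and adds no support.

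Ddr1 (ENSMUSG00000003534, mm10 chr17:35681567-35704621, minus strand) encodes a collagen receptor that in mice is most abundant in epithelia. It was measured at 23.7, 24.4 and 23.0 FPKM in shLuc_dox and at 17.2, 18.2 and 14.7 FPKM in shMettl3_dox. The groups did not overlap, and knockdown replicate 3 was the lowest. The mean went from 23.7 ± 0.685 to 16.7 ± 1.82 FPKM, a ratio of 0.705. Its log2(FPKM + 1) changed by -0.49 (SE 0.0773, 95% interval -0.67 to -0.30, limma adjusted p = 0.00488). Without that library the change was -0.40 (adjusted p = 0.00262). DESeq2 gave a log2 ratio of -0.50 (adjusted p = 8.14e-09), and the authors' deposited table, from the same reads, gives -0.500.

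Epithelial markers were examined beside Ddr1. Of 8 markers, 3 passed 1 FPKM and all 3 fell, namely Krt18 (46.2 ± 1.66 to 29.1 ± 3.93 FPKM), Esrp2 (6.19 ± 0.463 to 4.18 ± 0.118 FPKM) and Epcam (4.14 ± 0.416 to 2.66 ± 0.449 FPKM), with limma adjusted p of 0.00278, 0.00282 and 0.0171. Among all genes tested, 13.5% fell. The Epcam call was lost without shLuc_dox replicate 1 (0.0635) or 2 (0.0610). The defining marker Krt14 was at 0 and the group means of Cdh1, Krt5, Krt8 and Esrp1 did not exceed 0.124 FPKM. The markers summed to 55.2 to 58.7 FPKM in shLuc_dox and 33.4 to 40.1 FPKM in shMettl3_dox. Their part in the Ddr1 result was not tested.

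Ddr2 (ENSMUSG00000026674, mm10 chr1:169972307-170110762, minus strand) encodes the discoidin receptor typical of mesenchymal cells and was the most abundant member. Its levels were 34.9, 33.9 and 35.8 FPKM in shLuc_dox and 37.8, 35.8 and 41.3 FPKM in shMettl3_dox. The highest control library and the lowest knockdown library met, and knockdown replicate 3 was the highest. The change in log2(FPKM + 1) was 0.13 (SE 0.0581, 95% interval -0.01 to 0.27, limma adjusted p = 0.145), and 0.07 without shMettl3_dox replicate 3 (adjusted p = 0.243). The count tests fell on either side of the threshold, with an adjusted p of 0.04998 in edgeR and 0.0504 in DESeq2. The ratio of Ddr1 to Ddr2 FPKM was 0.680, 0.719 and 0.642 in shLuc_dox and 0.455, 0.509 and 0.355 in shMettl3_dox. Its log2 was lower by 0.64 in shMettl3_dox (-0.56 ± 0.0815 against -1.20 ± 0.265, exact permutation p = 0.1, two-sided, the smallest possible). The ratio restates the Ddr1 and Ddr2 values above, so this p adds no support to them.

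Igf1r (ENSMUSG00000005533, mm10 chr7:67952827-68233668, plus strand) encodes the receptor for Igf1 and Igf2 and was the one member that rose. Its levels were 6.24, 6.33 and 6.82 FPKM in shLuc_dox and 8.71, 9.35 and 9.59 FPKM in shMettl3_dox. Every knockdown library was above every control library. The mean went from 6.46 ± 0.313 to 9.22 ± 0.454 FPKM, a ratio of 1.43, from 1907 to 3689 reads per library. Its log2(FPKM + 1) changed by 0.45 (SE 0.0571, 95% interval 0.32 to 0.59, limma adjusted p = 0.00212), and by 0.43 without shMettl3_dox replicate 3 (adjusted p = 0.00534). DESeq2 gave a log2 ratio of 0.52 (adjusted p = 7.16e-14). Its own ligands were at or near 0: Igf1 had at most 2 reads in any library and Igf2 had none.

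Fgfr1 (ENSMUSG00000031565, mm10 chr8:25513654-25575718, plus strand) was the FGF receptor gene with the highest level. It was measured at 28.2, 27.5 and 25.6 FPKM in shLuc_dox and at 25.3, 25.9 and 24.7 FPKM in shMettl3_dox. The groups overlapped, and the change in log2(FPKM + 1) was -0.09 (SE 0.0483, 95% interval -0.21 to 0.02, limma adjusted p = 0.193). Without shMettl3_dox replicate 3 it was -0.08 (adjusted p = 0.297). An antisense gene, Gm16159, shares 164 exon bases with Fgfr1 and stood at 1.07 FPKM. No source used here states the use of strand in counting, so their reads cannot be told apart in those bases. The same limit holds for other members that share exon bases with a gene on the other strand. These are Fgfr3 (998, G630022F23Rik), Pdgfra (456, Gm42802, and 166, Gm42803), Ddr1 (216, Gm4577) and Ddr2 (90, 3110045C21Rik). Those genes stood at 0 to 0.109 FPKM.

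Fgfr3 (ENSMUSG00000054252, mm10 chr5:33721674-33737068, plus strand), which restrains growth of cartilage, was measured at 0.645, 0.611 and 0.490 FPKM in shLuc_dox and at 0.560, 0.719 and 0.589 FPKM in shMettl3_dox. The groups overlapped, from 59 to 101 reads per library, and the DESeq2 log2 ratio was 0.10 (adjusted p = 0.849). Of 6 cartilage markers, the 2 tested were lower: Col2a1 had 4.33 ± 0.129 FPKM in shLuc_dox and 0.363 ± 0.0318 FPKM in shMettl3_dox, and Sox9 had 25.8 ± 0.624 and 19.6 ± 0.999 FPKM (limma adjusted p = 6.08e-05 and 0.00227). Col2a1 reached a mean of 1 FPKM only through shLuc_dox, and 13.5% of all genes tested fell. The defining marker Acan was at 0, and the list summed to 29.9 to 30.9 FPKM in shLuc_dox and 19.1 to 21.03 FPKM in shMettl3_dox.

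Fgfr2 (ENSMUSG00000030849, mm10 chr7:130162451-133123350, minus strand), whose splice forms separate epithelial from mesenchymal FGF responses, was the lowest member. It was measured at 0.346, 0.472 and 0.357 FPKM in shLuc_dox and at 0.346, 0.188 and 0.226 FPKM in shMettl3_dox. One library of each group was at the same level to 3 digits. The DESeq2 log2 ratio was -0.61 (adjusted p = 0.159) and the edgeR log2 ratio was -0.60 (adjusted p = 0.0943), from 34 to 98 reads per library. The Fgfr2 annotation shares 314 exon bases with Ctbp2, on the same strand and at 9.96 FPKM, so reads could not be assigned to one gene in those bases.

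Met (ENSMUSG00000009376, mm10 chr6:17463800-17573980, plus strand) encodes the hepatocyte growth factor receptor. Its levels were 8.20, 7.89 and 8.68 FPKM in shLuc_dox and 7.57, 8.57 and 8.55 FPKM in shMettl3_dox. The groups overlapped throughout, and the change in log2(FPKM + 1) was -0.01 (SE 0.0635, 95% interval -0.16 to 0.14, limma adjusted p = 0.961). Without shMettl3_dox replicate 3 it was -0.03 (adjusted p = 0.773).

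**Figure D2:**
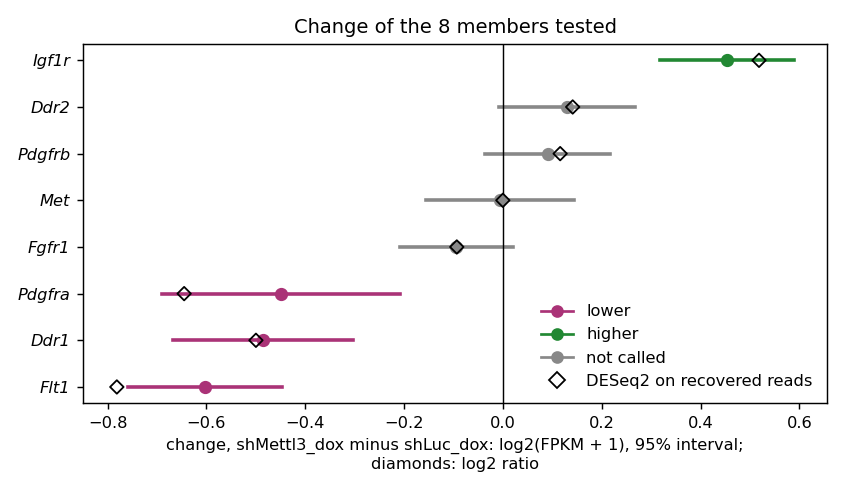
Change of the 8 tested receptor kinases on the log2(FPKM + 1) scale, shMettl3_dox minus shLuc_dox, with 95% intervals from limma (n = 3 per group) and colours by call. Diamonds are DESeq2 log2 ratios. The intervals of Flt1, Ddr1 and Pdgfra lie under 0, that of Igf1r lies above it, and those of Fgfr1, Met, Pdgfrb and Ddr2 cross it.

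The 250 bases before the annotated start are shown for the 4 members that changed, since 3 of them moved one way and 1 the other. Sequences and starts are from RefSeq on GRCm38.p6, and 8 of the 10 members matched an entry. Capitals mark motifs found on either strand among these searched: the GC box GGGCGG, the CCAAT box CCAAT, the TATA box TATAAA, the E-box CACGTG, the AP-1 site TGANTCA, the ETS core CCGGAA, the cAMP response element TGACGTCA and the p53 half-site. For Ddr1, which has 4 annotated starts, the window before the outermost one is printed.
Flt1 chr5:147726012-147726261, minus strand: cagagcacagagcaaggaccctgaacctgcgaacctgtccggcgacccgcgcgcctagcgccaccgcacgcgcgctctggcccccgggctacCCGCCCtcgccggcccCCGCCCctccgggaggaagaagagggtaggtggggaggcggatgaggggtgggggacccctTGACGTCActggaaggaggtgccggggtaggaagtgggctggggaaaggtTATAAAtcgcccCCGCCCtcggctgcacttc
Pdgfra chr5:75152001-75152250, plus strand: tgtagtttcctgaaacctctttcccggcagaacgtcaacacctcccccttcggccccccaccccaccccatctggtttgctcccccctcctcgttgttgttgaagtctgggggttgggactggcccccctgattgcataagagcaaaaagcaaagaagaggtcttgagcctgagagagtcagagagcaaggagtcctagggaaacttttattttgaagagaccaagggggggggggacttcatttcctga
Ddr1 chr17:35704600-35704849, minus strand: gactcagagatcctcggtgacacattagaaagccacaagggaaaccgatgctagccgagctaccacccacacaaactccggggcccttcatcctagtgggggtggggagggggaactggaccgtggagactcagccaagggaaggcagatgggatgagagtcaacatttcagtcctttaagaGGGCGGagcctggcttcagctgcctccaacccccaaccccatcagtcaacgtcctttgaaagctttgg
Igf1r chr7:67952007-67952256, plus strand: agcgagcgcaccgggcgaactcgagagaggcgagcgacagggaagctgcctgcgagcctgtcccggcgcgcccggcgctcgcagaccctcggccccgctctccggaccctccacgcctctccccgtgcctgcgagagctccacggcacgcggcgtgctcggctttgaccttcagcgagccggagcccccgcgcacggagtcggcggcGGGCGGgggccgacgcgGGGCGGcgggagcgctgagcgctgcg

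The Flt1 window (70.4% GC) held 3 GC boxes, 1 TATA box and 1 cAMP response element, and the Igf1r window (77.6% GC) held 2 GC boxes. The printed Ddr1 window (56.8% GC) held 1 GC box and the Pdgfra window (54.4% GC) held none of the motifs. Among 32851 windows of the same length the median GC content was 52.4%. A GC box was in 32.7% of them, a CCAAT box in 33.9%, a TATA box in 12.4%, an ETS core in 12.0%, a p53 half-site in 7.13%, an AP-1 site in 6.75%, an E-box in 6.02% and a cAMP response element in 1.55%. A match here is a match of letters. Nothing was measured at these promoters.

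In the control libraries the members ranked Ddr2, Fgfr1, Ddr1, Met, Igf1r, Pdgfrb, Flt1, Pdgfra, Fgfr3 and Fgfr2 by FPKM, which is per length. The ranges of neighbours in that order did not overlap. In the knockdown libraries Igf1r moved above Met and the rest of the order was the same, again with no overlap between neighbours. The 10 members summed to 114, 112 and 112 FPKM in shLuc_dox and to 107, 108 and 109 FPKM in shMettl3_dox. That was 22.8%, 22.2% and 22.6% of all receptor tyrosine kinase FPKM in shLuc_dox and 21.01%, 21.4% and 22.1% in shMettl3_dox.

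The receptor kinase genes outside the 10 numbered 48, of which 43 were above 0 and 20 were tested. Of these 20, 6 fell, 2 rose and 12 did not pass, with a median change of -0.16. Over all genes tested, 13.5% fell and 14.6% rose, with a median change of 0.01. Changes from here on are on the log2(FPKM + 1) scale unless a count test is named, and 2 values in a row are the shLuc_dox mean and then the shMettl3_dox mean. Egfr, the epidermal growth factor receptor, fell from 7.30 ± 0.568 to 3.89 ± 0.352 FPKM (-0.76, limma adjusted p = 0.00104). Ltk, related to the anaplastic lymphoma kinase, had 3.76 ± 0.483 and 1.62 ± 0.288 FPKM (-0.86, adjusted p = 0.00266). Mertk, a receptor for Gas6, had 14.5 ± 0.816 and 10.0 ± 0.260 FPKM (-0.49, adjusted p = 0.00124). Ptk7, a Wnt-pathway pseudokinase, and Epha2, an ephrin receptor, were lower by 0.28 and 0.26 (adjusted p = 0.00923 and 0.0115). Ephb3 also passed (-0.40, adjusted p = 0.0441), but not without any one library other than shLuc_dox replicate 2 (0.0693 to 0.115).

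Axl, another Gas6 receptor and the most abundant receptor kinase of these cells, rose from 171 ± 1.63 to 199 ± 5.25 FPKM (0.22, limma adjusted p = 0.00721). Ryk, a Wnt-binding pseudokinase, had 22.2 ± 1.43 and 27.1 ± 1.69 FPKM (0.27, adjusted p = 0.0210), a call lost without shLuc_dox replicate 1, shLuc_dox replicate 3 or shMettl3_dox replicate 1 (0.0569 to 0.0667). Ephb4, Erbb2, Tyro3 and Lmtk2, also at 10 FPKM or more, did not pass, with adjusted p of 0.412, 0.111, 0.0768 and 0.0742. Erbb2 and Tyro3 passed as higher in both count tests and without shMettl3_dox replicate 3 (0.0163 and 0.0212). Lmtk2 passed as lower in edgeR (0.0468), under protein-coding scaling (0.0341) and without shMettl3_dox replicate 2 (0.0488), but not in DESeq2. With edgeR, 11 of 30 receptor kinases outside the 10 were lower and 4 were higher, against 14.8% and 16.3% of all genes in that test.

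By mean level over the 6 libraries Ddr2 ranked 4, Fgfr1 5 and Ddr1 7 among receptor tyrosine kinases, after Axl, Epha2 and Ptk7. Likeness of profile was measured as the root-mean-square distance between centred log2(FPKM + 1) values over the 6 libraries, among 20 candidates. The nearest was Mertk for Flt1 (0.0918), Erbb3 for Ddr1 (0.0645), Ephb3 for Pdgfra (0.105) and Ryk for Igf1r (0.118). A nearest gene always exists, and the distance includes the group change by which these members were called, so it is no separate support. This likeness holds on that scale, where changes near 1 FPKM are smaller than the log2 ratio. DESeq2 log2 ratios were -0.78 for Flt1 and -0.52 for Mertk, and -0.50 for Ddr1 and -0.90 for Erbb3. They were -0.65 for Pdgfra and -0.55 for Ephb3, and 0.52 for Igf1r and 0.29 for Ryk. Erbb3 itself did not pass the test (-0.45, limma adjusted p = 0.0560), at 1.02 FPKM. Both count tests called it lower (log2 ratio -0.89, adjusted p = 0.00357 in edgeR, and -0.90, adjusted p = 0.00238 in DESeq2), and the authors' deposited table lists it as lower.

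**Figure D3:**
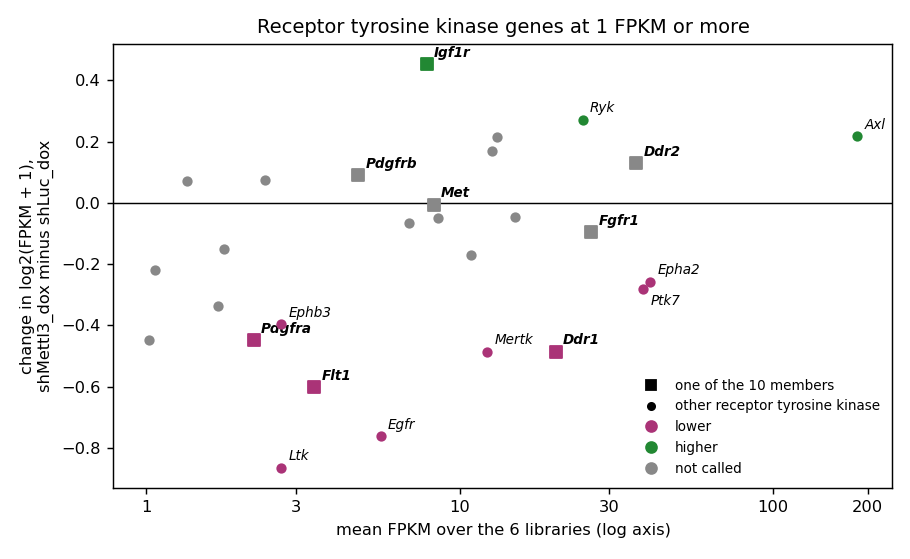
Mean FPKM over the 6 libraries (log axis) against the change in log2(FPKM + 1), shMettl3_dox minus shLuc_dox, for the receptor tyrosine kinase genes at 1 FPKM or more. Squares are the 10-member set's 8 tested genes, circles are the 20 others, and colour gives the call. Egfr and Ltk lie lowest, Igf1r lies highest, and Axl is the most abundant.

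Ligands of the receptors were measured for 18 genes, 7 of which were tested, and 5 fell, 1 rose and 1 did not pass (median change -0.51). Fgf18, Pgf and Fgf5 reached a mean of 1 FPKM only through shLuc_dox, where they were high, so this count and median partly follow from the filter. In edgeR 5 of 12 ligands fell and 2 rose, against 14.8% and 16.3% of all genes in that test. In DESeq2 5 of 12 fell and 1 rose, against 13.4% and 13.8%. In limma the shares over all genes tested were 13.5% lower and 14.6% higher. Vegfa and Pgf, both ligands of Flt1, fell with it. Vegfa was measured at 23.1, 24.3 and 22.4 FPKM in shLuc_dox and at 17.4, 16.0 and 14.8 FPKM in shMettl3_dox (-0.51, limma adjusted p = 0.00216). Pgf, placental growth factor, had 1.502 ± 0.158 and 0.636 ± 0.0911 FPKM (-0.61, adjusted p = 0.0107). Vegfb, the other Flt1 ligand, had 19.8 ± 2.46 and 21.4 ± 1.05 FPKM and did not pass (adjusted p = 0.391).

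Pdgfa, a ligand of Pdgfra, had 15.5 ± 1.09 FPKM in shLuc_dox and 11.8 ± 0.421 FPKM in shMettl3_dox (-0.36, limma adjusted p = 0.00521). Pdgfc, which also binds Pdgfra, went the other way, with 1.77 ± 0.140 and 2.58 ± 0.400 FPKM (0.37, adjusted p = 0.0424). That call was lost without any one library other than shMettl3_dox replicate 1 (0.0684 to 0.119). Among FGFs, Fgf18 was measured at 2.59, 1.68 and 1.502 FPKM in shLuc_dox and at 0.2005, 0.193 and 0.0836 FPKM in shMettl3_dox (-1.32, adjusted p = 0.00241), from 2 to 56 reads per library. Its DESeq2 log2 ratio was -3.58. Fgf5 had 1.51 ± 0.179 and 0.747 ± 0.0263 FPKM (-0.52, adjusted p = 0.0159), a call lost on leaving out replicate 1 of either group or replicate 2 of shLuc_dox (0.0508 to 0.0618). Hgf, the ligand of Met, had at most 7 reads in any library.

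Co-receptors and proteins that present, activate or trap the ligands were measured for 30 genes. Of 22 tested, 11 fell, 4 rose and 7 did not pass (median change -0.15), beside 13.5% lower and 14.6% higher over all genes tested. Plau, the urokinase that activates plasminogen and can process growth factors, had 93.7 ± 2.77 FPKM in shLuc_dox and 37.3 ± 2.19 FPKM in shMettl3_dox (-1.31, limma adjusted p = 6.08e-05). St14, matriptase, which activates pro-HGF, had 17.6 ± 1.17 and 6.84 ± 0.324 FPKM (-1.25, adjusted p = 7.66e-05). Spint1, the inhibitor of matriptase, also fell, from 9.68 ± 0.488 to 6.46 ± 0.307 FPKM (-0.52, adjusted p = 0.00131).

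Plat, tissue plasminogen activator, had 12.8 ± 0.705 and 7.83 ± 0.469 FPKM (-0.65, limma adjusted p = 0.000755). The heparan sulfate carriers Gpc3 and Gpc4, which present ligands at the cell surface, were lower by 0.51 and 0.41 (adjusted p = 0.00116 and 0.00152). Sdc2, a syndecan, rose from 14.4 ± 0.923 to 18.5 ± 1.00 FPKM (adjusted p = 0.00799). Neither family moved as one: Sdc3 passed as higher (0.0154) and Sdc1 as lower (0.0441), while Sdc4, Gpc1 and Gpc6 did not pass. The Sdc1 and Sdc3 calls were each lost on leaving out some single libraries. The neuropilins, co-receptors for VEGF, moved in opposite directions. Nrp1 was measured at 3.66, 3.81 and 4.21 FPKM in shLuc_dox and at 2.29, 2.33 and 2.53 FPKM in shMettl3_dox (adjusted p = 0.00315). Nrp2 was measured at 1.63, 1.86 and 1.91 FPKM in shLuc_dox and at 2.67, 3.07 and 3.07 FPKM in shMettl3_dox (adjusted p = 0.00754). Igf2r, which clears Igf2, fell from 23.5 ± 0.366 to 20.2 ± 0.478 FPKM (-0.21, adjusted p = 0.00914). The syndecans, Gpc1, Gpc6, Nrp1, Nrp2 and Igf2r, like the cell type markers above, were named after their values were seen.

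Adaptors and effectors below the receptors were all expressed. Of 29 tested, 4 fell, 4 rose and 21 did not pass (median change -0.03). These counts were close to the shares over all genes tested, 13.5% lower and 14.6% higher. Irs2, the docking protein of Igf1r and the insulin receptor, fell from 18.9 ± 0.506 to 14.3 ± 0.576 FPKM (-0.38, limma adjusted p = 0.00195) while Igf1r rose. Pik3r3, a regulatory subunit of phosphoinositide 3-kinase, had 10.5 ± 0.167 and 7.85 ± 0.312 FPKM (adjusted p = 0.00214), and Stat3, a transcription factor, had 8.73 ± 0.314 and 6.36 ± 0.192 FPKM (adjusted p = 0.00205). Pdpk1, the kinase that activates Akt, was lower by 0.24 (adjusted p = 0.00683), and Akt1 was higher, at 105 ± 1.21 against 89.1 ± 2.49 FPKM (adjusted p = 0.00504). Crk, an adaptor, had 46.3 ± 0.371 and 53.7 ± 0.901 FPKM (adjusted p = 0.00586).

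Negative regulators were measured for 30 genes. Of 28 tested, 4 fell, 3 rose and 21 did not pass (median change -0.06). Here too the counts were close to the 13.5% lower and 14.6% higher of all genes tested. Ptprj, a phosphatase that removes phosphate from receptor kinases, fell from 8.33 ± 0.106 to 5.60 ± 0.247 FPKM (-0.50, limma adjusted p = 0.000959). Cbl, the ubiquitin ligase that sends activated receptors to lysosomes, had 5.07 ± 0.184 and 3.96 ± 0.147 FPKM (adjusted p = 0.0113). Socs3 had 4.94 ± 0.168 and 3.50 ± 0.142 FPKM (adjusted p = 0.00386), and its relative Socs2, a brake on growth hormone signals, went up from 4.14 ± 0.167 to 5.90 ± 0.656 FPKM (adjusted p = 0.00972). Spry1 and Trib3 passed as higher (adjusted p = 0.0248 and 0.0261). Spry1 lost its call without any one library other than shLuc_dox replicate 2 (0.0528 to 0.0794). Trib3 lost it on leaving out replicate 1 of either group, replicate 3 of shLuc_dox or replicate 2 of shMettl3_dox (0.0514 to 0.0846). Trib3 also did not pass in DESeq2 (0.0651) or under the replicate block (0.0503). With no filter on low values neither Spry1 (0.0808) nor Trib3 (0.0799) passed.

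**Figure D4:**
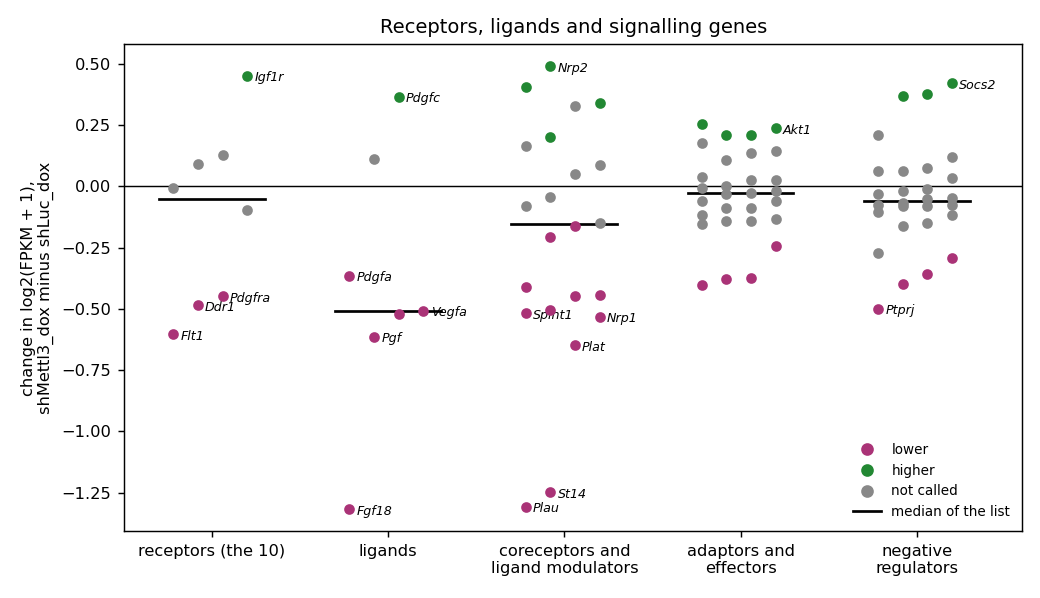
Change in log2(FPKM + 1), shMettl3_dox minus shLuc_dox, of every tested gene in 5 lists, one point per gene coloured by call, with a bar at each list's median. The medians are -0.05 for the receptors, -0.51 for the ligands, -0.15 for co-receptors and modulators, -0.03 for adaptors and -0.06 for negative regulators. Of the ligands, Fgf18, Pgf and Fgf5 reached a mean of 1 FPKM only through shLuc_dox.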

How the data were processed

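The labels' protocols give TRIzol total RNA and a NEBNext Ultra kit. Tools named in the submitters' processing notes are featureCounts 1.5.3, STAR, fastp and DESeq2, with build mm10. Deposited FPKM were made by the authors from reads, gene length and library size. A second deposited table lists 1960 genes lower in shMettl3_dox, with normalized counts (a signal: reads divided by one factor per library), the authors' log2 fold changes and p-values; its columns name the hairpin shMettl3-2.

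The main test was limma 3.58.1 (R 4.3.3) on log2(FPKM + 1), with an intensity trend, two-sided and adjusted over 12098 genes. Whole reads, within 0.001 of a read, were recovered from FPKM and GENCODE M21 exon lengths for 96.7% of genes above 0, all 10 members included. The other 872 genes were rounded. For listed genes the authors' reads were used, which equalled the recovered reads in 94.7%. edgeR 4.0.16 called 4501 genes on these reads and DESeq2 1.42.0 called 3979. Alternatives also covered pseudocount 0.1, filters, scalings, no trend, a replicate block and leaving out each library. Scripts were tested on simulated data with Python 3.11.15, numpy 2.4.6, pandas 2.3.3, scipy 1.17.1 and matplotlib 3.10.9.

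The members and lists were chosen with earlier results of these data known. Genes outside the 10 were named if they were among the up to 6 of their list past the threshold with the smallest p, were receptor kinases at 10 FPKM or more, or were nearest in profile to a changed member. Mettl3 was named as the targeted gene, and Kit and Kdr as the neighbours of Pdgfra. Vegfb, Hgf, Igf1 and Igf2, ligands of members, were named outside these rules. The spread behind each p-value is that between these libraries and may be technical, since separate cultures are not stated.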

Additional observations from a re-analysis of the deposited data

How the results depend on the processing

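Of 134 values of the 10 members under the alternatives, 125 kept their direction and side of the threshold, 3 lost the call (Pdgfra) and 2 gained it (Ddr2 in edgeR). The other 4 were Met, never called, whose change of -0.01 became 0.0271 without shLuc_dox replicate 3, 0.0467 without shMettl3_dox replicate 1, and 0.0067 and 0.0024 in edgeR with and without its filter. Leaving out one library gave Met changes of -0.0345 to 0.0467. Leaving out one library at a time gave Flt1 changes of -0.63 to -0.58, Ddr1 of -0.55 to -0.40, Pdgfra of -0.52 to -0.40 and Igf1r of 0.43 to 0.49. Members higher were 2 with edgeR, with and without its filter on low counts, against 1 otherwise; members lower were 2 rather than 3 with no filter and on leaving out replicate 1 of shLuc_dox or replicate 2 of shMettl3_dox.

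Over all genes, 1633 fell and 1763 rose. Leaving out a library gave 1060 to 1646 lower and 1013 to 1854 higher genes. The higher count was 1059, 1013 and 1146 without replicates 1, 2 and 3 of shLuc_dox, and 1060 without replicate 1 of shMettl3_dox. The lower count was 1060 without shLuc_dox replicate 2. With no filter, over 26328 genes, 1350 fell and 1178 rose. Scaling to protein-coding FPKM gave 1922 lower and 1264 higher, a lower share of 60.3% against 48.1%. Fewer libraries or more genes tested are part of these settings' construction; the cause of other shifts was not tested.

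With the replicate block, 1525 genes fell and 1676 rose, and 3 members fell and 1 rose. Same-numbered libraries shared only a number: their deviations correlated at 0.0340, -0.00680 and 0.0631, and not every library correlated best with its own number.

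Receptor kinases outside the 10 had 10 of 30 genes lower with DESeq2 and 11 of 30 with edgeR, against 6 of 20 with limma. The shares over all genes were 13.4%, 14.8% and 13.5%. Higher were 4 of 30 in each count test, against 2 of 20, beside 13.8%, 16.3% and 14.6% of all genes. With no count filter edgeR called 13 lower. The higher count in limma was 1 without replicate 1 or 3 of shLuc_dox or replicate 1 of shMettl3_dox, and 4 without replicate 3 of shMettl3_dox. Higher ligands were 2 of 12 with edgeR, against 1 of 7 with limma. In limma they were 0 under the replicate block, protein-coding scaling, and on leaving out any library other than replicate 1 of shMettl3_dox. Higher co-receptors were 2, against 4, without replicate 1 of either group. Higher adaptors were 2, against 4, without replicate 2 of shLuc_dox. Higher negative regulators were 1, against 3, without replicate 1 or 3 of shLuc_dox or replicate 1 or 2 of shMettl3_dox. With no filter on low values, higher counts in these lists were 1 for other receptor kinases, 0 for ligands, 2 for co-receptors and 1 for negative regulators. Depth limits Fgfr2 and Fgfr3, at 34 to 98 and 59 to 101 reads per library.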
